A study of Homo sapiens with 6 samples.

Results

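The 9 genes described here encode enzymes of the pentose phosphate pathway and of the step that leads out of it. They are *PGD*, *PGLS*, *H6PD*, *TKT*, *TALDO1*, *RPIA*, *RPE*, *PRPS1* and *PRPS2*, taken by gene symbol from the 57820 genes of a total RNA-seq series. They were chosen by a measured value, the lower level of *PGD* in CTCF-dRBR than in CTCF-WT cells, so the difference of *PGD* is described below without a test. The other 8 genes were taken for their place in the pathway, but with earlier results of these data known. All 9 were among the 14044 genes that reached 1 CPM (a count scaled to the library's total) in at least 1 library.

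The series compared 3 CTCF-WT with 3 CTCF-dRBR libraries and asked what the RNA binding region (RBR) of CTCF contributes to transcription. All cells derive from SEM, a line established from human acute lymphoblastic leukemia of the B lineage. In both groups endogenous CTCF carries a miniAID-mClover3 tag and OsTIR1(F74G) is expressed constitutively, so that the auxin analog 5-Ph-IAA leads to loss of the tagged protein. The 5-Ph-IAA treatment lasted 24 h, and doxycycline at 1 µg/mL was present for the last 18 h to induce an HA-tagged CTCF transgene. The transgene is wild-type in CTCF-WT (CTCF AID2/WT cells) and lacks the RBR in CTCF-dRBR (CTCF AID2/dRBR cells). No transgene is named in the genotype labels of the CTCF-WT libraries, whose titles place them in that group. Each group is a single transduced line, and the sources used here do not say whether it is 1 clone or whether the 3 libraries came from separate cultures. The p-values therefore measure the spread between these libraries, which may be technical.

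The pentose phosphate pathway branches from glycolysis at glucose 6-phosphate. Its oxidative branch yields NADPH, the electron donor of reductive synthesis and of antioxidant enzymes, and ends in ribulose 5-phosphate. PGLS hydrolyzes 6-phosphogluconolactone, and PGD (6-phosphogluconate dehydrogenase) then oxidizes 6-phosphogluconate to ribulose 5-phosphate. H6PD carries out the first steps of this branch in the lumen of the endoplasmic reticulum. In the nonoxidative branch RPIA converts ribulose 5-phosphate to ribose 5-phosphate, and RPE converts it to xylulose 5-phosphate. Transketolase (TKT) and transaldolase (TALDO1) exchange carbon units between these sugars and glycolysis. PRPS1 and PRPS2 turn ribose 5-phosphate into PRPP, from which nucleotides are made.

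The promoters of *PGD*, *RPIA* and *RPE* are shown because *RPIA* had the pattern across libraries most like that of *PGD* among the members, and *RPE*, whose product is made from the same substrate, the least like it. Each sequence is the 250 bases before the RefSeq transcription start, on the plus strand of GRCh38.p14. Capitals mark matches on either strand to the SP1 core GGGCGG, the CCAAT box CCAAT and the core of the antioxidant response element TGACNNNGC, the element bound by NRF2.
PGD, chr1:10398814-10399063: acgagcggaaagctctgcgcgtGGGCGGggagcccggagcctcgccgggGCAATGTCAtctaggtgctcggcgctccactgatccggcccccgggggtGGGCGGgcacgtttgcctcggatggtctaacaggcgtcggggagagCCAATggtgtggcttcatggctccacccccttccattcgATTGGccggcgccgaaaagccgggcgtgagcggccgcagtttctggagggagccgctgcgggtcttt
RPIA, chr2:88691423-88691672: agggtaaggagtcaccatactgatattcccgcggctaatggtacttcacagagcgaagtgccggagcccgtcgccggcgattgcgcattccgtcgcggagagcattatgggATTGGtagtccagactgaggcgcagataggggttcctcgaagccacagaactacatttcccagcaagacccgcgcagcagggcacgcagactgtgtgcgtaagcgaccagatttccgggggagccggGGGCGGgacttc
RPE, chr2:210002388-210002637: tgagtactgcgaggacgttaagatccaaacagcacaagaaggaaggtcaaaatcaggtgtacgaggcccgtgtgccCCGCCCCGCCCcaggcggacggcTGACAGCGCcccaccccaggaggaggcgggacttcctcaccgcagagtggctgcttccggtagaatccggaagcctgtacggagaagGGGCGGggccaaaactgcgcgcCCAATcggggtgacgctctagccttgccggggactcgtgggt

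All 9 members had a promoter in the RefSeq table. The antioxidant response element core lay in 2 of them, *PGD* and *RPE*, against 10.9% of the 35116 promoters of this length. In *PGD* the match, GCAATGTCA, lay on the minus strand with its first base 201 bases before the start. The SP1 core was found in 7 of the 9 promoters, against 42.6% of all, and the CCAAT box in 6, against 32.01%. The SP1 core holds only G and C, and all members but *H6PD* (44.8% GC) had promoters of 60% to 78.4% GC. The median of all promoters was 58%, and shares at like GC content were not compared. Neither the MYC E-box CACGTG, found in 6.34% of all promoters, nor the CTCF core motif, found in 0.0513%, occurred in a member. These matches describe the letters and are not binding sites.

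The libraries held 30034505 to 53166735 counts, and CTCF-dRBR replicate 1 was the smallest. It also stood apart from the rest, with a Spearman's rho across genes of at most 0.968 with any other library, where each of the other 5 reached at least 0.992 with its closest library. Its deviation in log2 CPM (with TMM factors) had the most negative relation to the GC content of genes (rho −0.78), so results are also given without it. That rho was 0.71, 0.67 and 0.34 in the CTCF-WT libraries and −0.42 and 0.50 in CTCF-dRBR replicates 2 and 3. Leaving out CTCF-dRBR replicate 1 thus does not remove the negative GC relation of CTCF-dRBR replicate 2. Of 8 B-lineage markers, 7 passed 1 CPM, with a summed level of 883 to 1067 CPM in CTCF-WT and 609 to 1023 CPM in CTCF-dRBR, and *DNTT* stayed under 1 CPM in every library. The T-cell, erythroid and epithelial marker lists each summed to at most 0.602 CPM in any library, and of 5 monocyte and granulocyte markers *CSF1R* alone passed 1 CPM.

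*PGD* (ENSG00000142657.16) lies on the plus strand of chromosome 1 of GRCh37, from 10458649 to 10480568. In the order of replicates 1, 2 and 3, used throughout, the CTCF-WT libraries had 154, 167 and 152 CPM of it, and the CTCF-dRBR libraries 97.8, 85.4 and 91.1 CPM. All CTCF-dRBR libraries lay below all CTCF-WT libraries, with means of 91.4 ± 6.21 CPM (SD, n = 3) and 158 ± 8.63 CPM. The fitted log2 fold change was −0.79 (standard error 0.097, limma-voom), or 0.579 times the CTCF-WT level, and 10.0% of all genes tested had a lower value. Without CTCF-dRBR replicate 1 it was −0.84 (standard error 0.082). In bulk RNA, fewer cells that express a gene and less RNA per cell cannot be told apart.

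**Figure D1:**
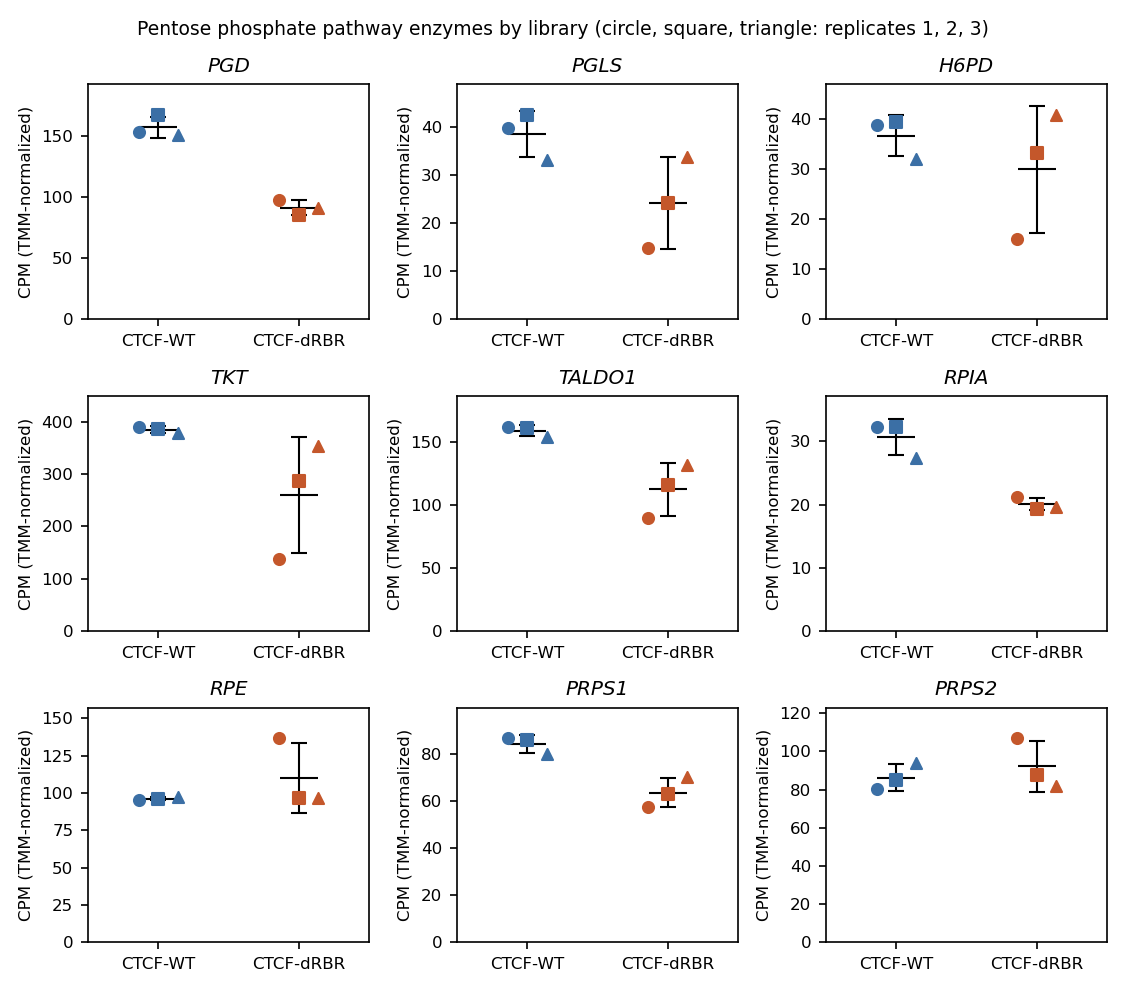
TMM-normalized CPM of each enzyme (vertical axes, each from 0) in the 3 CTCF-WT and 3 CTCF-dRBR libraries, with circles, squares and triangles for replicates 1, 2 and 3 and bars for the mean ± SD. The groups of *PGD*, *TKT*, *TALDO1*, *RPIA* and *PRPS1* do not overlap, and for *TKT*, *PGLS* and *H6PD* CTCF-dRBR replicate 1 is the lowest point.

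The lower level of *PGD* was not seen in the deposited TPM (transcript levels that divide counts by gene length and then by the library's sum). These were 48.9, 63.0 and 93.2 in CTCF-WT and 87.0, 60.0 and 46.9 in CTCF-dRBR, so the groups overlapped. The share of TPM that fell on protein-coding genes was 30.2% to 63.2% depending on the library. Rescaled over protein-coding genes, the TPM of *PGD* were 162, 176 and 178 in CTCF-WT and 138, 110 and 108 in CTCF-dRBR, again with all CTCF-dRBR libraries below. The fitted log2 fold change of *PGD* was −0.54 on that scale and −0.08 on log2(deposited TPM + 1). All genes together had a median of 0.40 on the latter scale.

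The ratio of counts to TPM gives the effective transcript length assigned to a gene, relative here to the mean of the 6 libraries and scaled by the median over 6867 protein-coding genes. For *PGD* it was 1.04, 1.08 and 1.02 in CTCF-WT and 0.826, 0.996 and 1.05 in CTCF-dRBR. CTCF-dRBR replicate 1 had the shortest length of *PGD*. Among the other members only *TALDO1* had its shortest there, 0.726 against 1.01 to 1.10 in the other 5 libraries. *PGLS*, *H6PD*, *TKT*, *RPIA* and *PRPS2* had their longest length in that library, from 1.02 for *PGLS* to 1.08 for *PRPS2*. For *RPE* and *PRPS1* it was neither the shortest nor the longest. A shorter length gives a higher TPM for the same count.

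**Figure D2:**
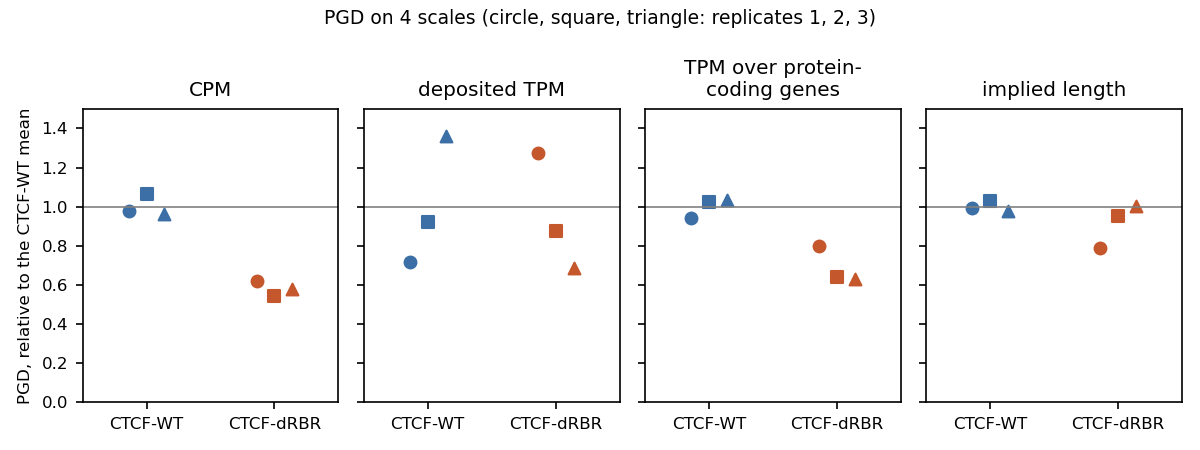
*PGD* relative to the CTCF-WT mean (vertical axes) on 4 scales: CPM, deposited TPM, TPM over protein-coding genes, and effective length. In CTCF-dRBR replicates 1, 2 and 3 the CPM stood at 0.621, 0.542 and 0.578 and the deposited TPM at 1.27, 0.878 and 0.687 times the CTCF-WT mean.

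The other enzymes of the oxidative branch varied more between CTCF-dRBR libraries than *PGD* did. *PGLS* (chromosome 19, 17622445 to 17632097) had 39.7, 42.4 and 33.2 CPM in CTCF-WT and 14.7, 24.2 and 33.8 CPM in CTCF-dRBR. The groups overlapped through CTCF-dRBR replicate 3, and the log2 fold change of −0.69 (standard error 0.28) did not pass the test (limma-voom, adjusted p = 0.194). *H6PD* (chromosome 1, 9294833 to 9331396) had 38.7, 39.4 and 31.9 CPM in CTCF-WT and 16.0, 33.2 and 40.8 CPM in CTCF-dRBR. The lowest and the highest library were both CTCF-dRBR, with a log2 fold change of −0.32 (standard error 0.32, limma-voom adjusted p = 0.485). Without CTCF-dRBR replicate 1 the values were −0.42 for *PGLS* and 0.0079 for *H6PD*.

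In the nonoxidative branch, *TKT* (chromosome 3, 53258728 to 53290068, minus strand) had 391, 385 and 378 CPM in CTCF-WT and 138, 286 and 354 CPM in CTCF-dRBR. The latter all lay below, but they ranged widely (260 ± 110 CPM, SD, n = 3). The log2 fold change of −0.66 (standard error 0.33) did not pass the test (limma-voom, adjusted p = 0.232) and was −0.28 without CTCF-dRBR replicate 1. *TALDO1* (chromosome 11, 747415 to 765012) had 162, 161 and 154 CPM in CTCF-WT and 90.1, 116 and 132 CPM in CTCF-dRBR. These groups did not overlap either, and the log2 fold change was −0.51 (standard error 0.15, limma-voom adjusted p = 0.145).

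*RPIA* and *RPE*, which compete for ribulose 5-phosphate, had unlike patterns. *RPIA* (chromosome 2, 88991191 to 89050446) had 32.3, 32.2 and 27.3 CPM in CTCF-WT and 21.2, 19.3 and 19.7 CPM in CTCF-dRBR. The 3 CTCF-dRBR libraries were close together and all below CTCF-WT, and the log2 fold change was −0.61 (standard error 0.12), which did not pass the adjusted test (limma-voom, adjusted p = 0.108). Without CTCF-dRBR replicate 1 *RPIA* passed it, with a log2 fold change of −0.65 (limma-voom, adjusted p = 0.0426). *RPE* (chromosome 2, 210867289 to 210886984) had 95.1, 96.1 and 97.3 CPM in CTCF-WT and 137, 96.9 and 96.4 CPM in CTCF-dRBR. Apart from the high CTCF-dRBR replicate 1 its libraries were nearly level, and the log2 fold change was 0.16 (standard error 0.15, limma-voom adjusted p = 0.456) with all libraries and 0.0025 without that one. *RPE* overlaps *KANSL1L* on the opposite strand. Of the 100-base stretches of *RPE*, 1.96% also occur in *RPEL1*, which could not be matched to a single gene by symbol in these data. *RPE* had fractional counts in all 6 libraries, so part of its counts is uncertain, and the genes that share them were not identified.

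The ratio of *RPE* to *RPIA*, in TPM, was 2.56, 2.61 and 2.87 in CTCF-WT and 5.38, 3.80 and 3.90 in CTCF-dRBR. The latter were all above, also when replicate 1 is set aside. This difference was not tested, and the ratios were not adjusted for GC content, which was 37.9% in *RPE* and 48.3% in *RPIA*. With each library's GC trend removed the log2 fold change was −0.16 for *RPE* and −0.59 for *RPIA*. The ratio of *TKT* to *TALDO1* was 1.46, 1.47 and 1.43 in CTCF-WT and 0.588, 1.48 and 1.65 in CTCF-dRBR, where replicate 1 alone lay below.

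The PRPP synthetases had unlike values, and the difference between them was not tested. *PRPS1* (chromosome X, 106871658 to 106895223) had 86.6, 85.9 and 79.8 CPM in CTCF-WT and 57.5, 63.1 and 70.1 CPM in CTCF-dRBR. The latter were all below, with a log2 fold change of −0.40 (standard error 0.11) that did not pass the test (limma-voom, adjusted p = 0.139). *PRPS2* (chromosome X, 12809474 to 12842341) had 80.3, 85.0 and 93.8 CPM in CTCF-WT and 107, 87.7 and 81.9 CPM in CTCF-dRBR. Here the groups overlapped, with a log2 fold change of 0.08 (standard error 0.13, limma-voom adjusted p = 0.674). The summed level of both genes was 167, 171 and 174 CPM in CTCF-WT and 164, 151 and 152 CPM in CTCF-dRBR.

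None of the 8 enzymes other than *PGD* passed an adjusted p of 0.05 in limma-voom, where 0% of all 14044 genes did. The counts below are a description, because the 8 were chosen with earlier results of these data known. At an unadjusted p under 0.05 there were 4 of 8, *PGLS*, *TALDO1*, *RPIA* and *PRPS1*, against 25.4% of all genes. edgeR's quasi-likelihood test called 0 of the 8 and 0% of all genes, and DESeq2 called 3 as lower, *TALDO1*, *RPIA* and *PRPS1*, against 6.14% of all genes called lower by DESeq2. With voomWithQualityWeights, which weights each library by its spread, 5 were called lower, *TKT* and *PGLS* besides those 3, against 35.8% of all genes. The CPM of all CTCF-dRBR libraries lay below all CTCF-WT libraries for 4 of the 8, *TKT*, *TALDO1*, *RPIA* and *PRPS1*, against 17.5% of all genes. The log2 fold change was below 0 for 6 of the 8, against 50.6% of all genes, and its median was −0.45, against −0.0076. Without CTCF-dRBR replicate 1, *RPIA* was the 1 of the 8 called as lower, where 2.37% of genes were, and the median was −0.31. With each library's GC trend removed, as described below, the median of the 8 was −0.16, against −0.0099 for all genes. Over deposited TPM the groups of all 8 overlapped, where 2.26% of all genes had all CTCF-dRBR libraries below (exact permutation tests, two-sided, p = 0.2 to 0.8, where 0.1 is the smallest possible). Over TPM of protein-coding genes, *TALDO1*, *RPIA* and *PRPS1* had all CTCF-dRBR libraries below, against 11.4% of genes (exact permutation tests, p = 0.1 for each).

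**Figure D3:**
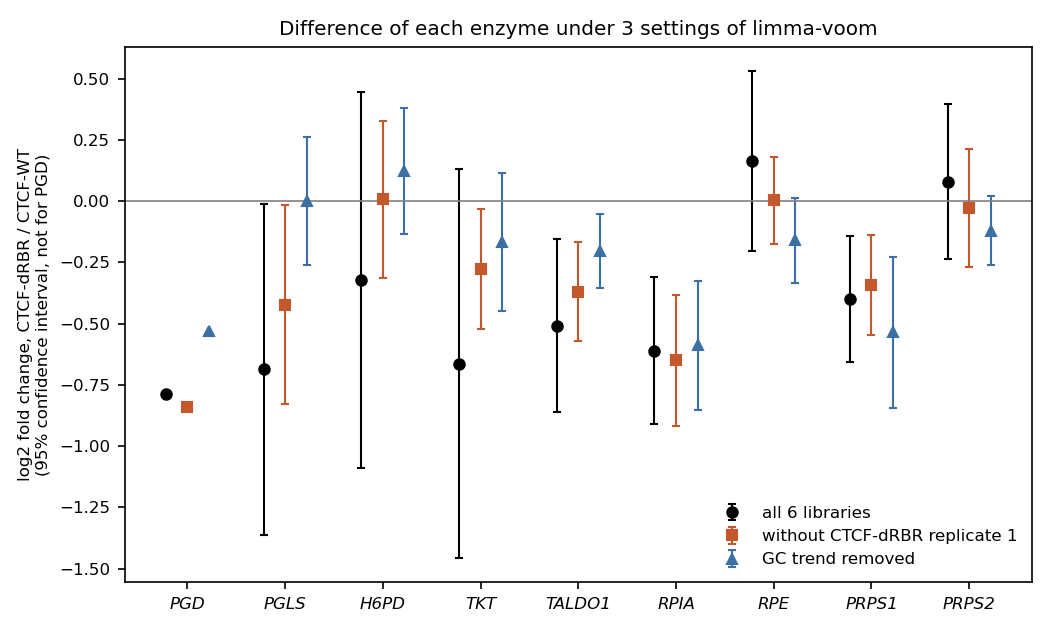
Log2 fold change of each enzyme, CTCF-dRBR over CTCF-WT (vertical axis), with 95% confidence intervals for all but *PGD*, under 3 settings: all libraries, CTCF-dRBR replicate 1 left out, and each library's GC trend removed. The intervals of *TALDO1*, *RPIA* and *PRPS1* lie below 0 in each setting, while the values of *H6PD*, *RPE* and *PRPS2* stand on both sides of 0.

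CTCF-dRBR replicate 1 differed from the CTCF-WT mean in step with the GC content of the 9 genes, which runs from 37.9% in *RPE* to 61.2% in *PGLS*. Its log2 ratio to that mean was 0.51 for *RPE* and 0.31 for *PRPS2*, the genes poorest in GC, and −1.38 for *PGLS* and −1.48 for *TKT*. Across the 9 genes Spearman's rho between GC content and this ratio was −0.967 in replicate 1, −0.55 in replicate 2 and −0.0667 in replicate 3, against −0.782, −0.624 and −0.235 across all genes. The 9 points share libraries and are given as a description. *PGD*, at 52.9% GC, had log2 ratios of −0.69, −0.88 and −0.79, and *RPIA*, at 48.3% GC, −0.53, −0.66 and −0.64. In CPM without GC adjustment both were thus lower in each CTCF-dRBR library by a like amount. In TPM over protein-coding genes *PGD* was less even, at 0.801, 0.641 and 0.628 times the CTCF-WT mean.

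With the GC trend of each library removed, *PGD* had a log2 fold change of −0.53 and *RPIA* one of −0.59, which passed the test (limma, adjusted p = 0.0308), where 5.27% of genes were called lower. That call was lost without CTCF-WT replicate 1 or 2 or CTCF-dRBR replicate 2 or 3, where the log2 fold change of *RPIA* was −0.55, −0.55, −0.56 and −0.55. The value of *PGD* after GC removal, with a standard error of 0.17, depended more on the libraries. It was −0.72, −0.44 and −0.40 without CTCF-dRBR replicate 1, 2 or 3. Without CTCF-dRBR replicate 1, a choice made after seeing the data, 4 of the 8 were called, *TALDO1*, *RPIA* and *PRPS1* as lower and *H6PD* as higher (limma, adjusted p = 0.0440), against 23.6% of all genes in either direction. With all libraries *PGLS* was at −0.00015 (limma, adjusted p = 0.999) and *TKT* at −0.17 (limma, adjusted p = 0.363). The part of GC content in the differences themselves was not tested.

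**Figure D4:**
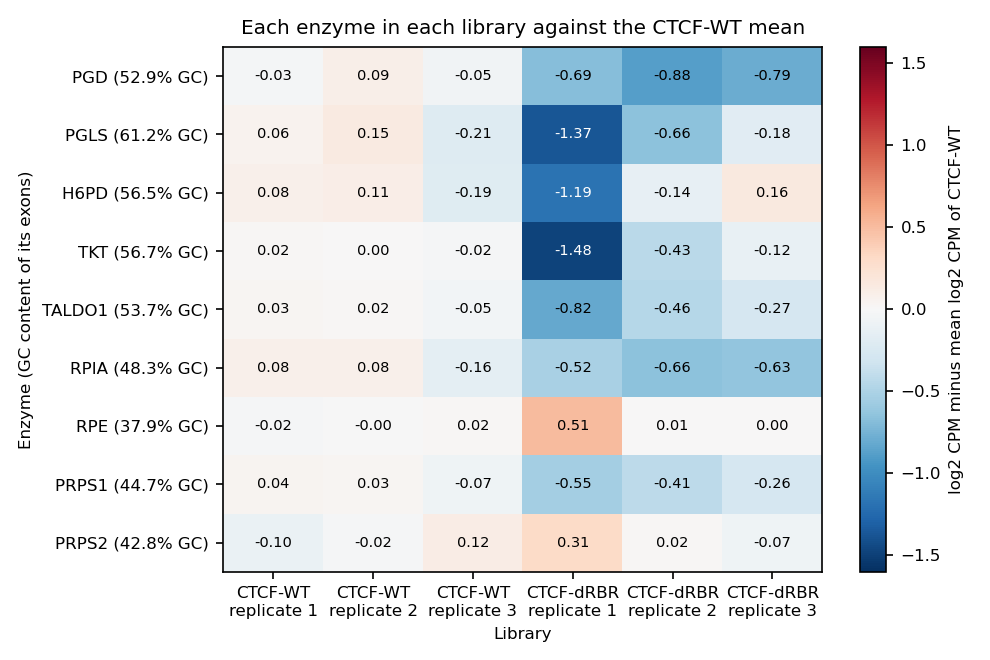
Log2 CPM of each enzyme (vertical axis, with its GC content) in each library (horizontal axis) minus its mean in CTCF-WT, as colour. *PGD*, *PGLS*, *TKT*, *TALDO1*, *RPIA* and *PRPS1* are below the CTCF-WT mean in all 3 CTCF-dRBR libraries, and CTCF-dRBR replicate 1 ranges from 0.51 for *RPE* to −1.48 for *TKT*.

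Per length, in TPM over protein-coding genes, *TKT* had the highest mean level in CTCF-WT (332), followed by *TALDO1* (229), *PGD* (172), *PRPS1* (75.0), *RPE* (71.7), *PGLS* (65.2), *PRPS2* (60.8), *RPIA* (26.8) and *H6PD* (6.44). The 4 genes from *PRPS1* to *PRPS2* lay close together, and neighbours among them overlapped between libraries. *PGD* made up 16.5% ± 0.707 (SD, n = 3) of the sum of the 9 in CTCF-WT and 14.8% ± 4.22 in CTCF-dRBR, where *TKT* ranged from 16.0% to 35.2%.

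Genes around these enzymes were taken from 6 lists of 74 genes. The NADPH sources *IDH1* and *IDH2*, and *RPEL1*, *IDNK* and *SHPK* of the ribose list, could not be matched to a single gene by symbol. Their levels are therefore not covered here. Of the 69 genes matched, 60 were tested. None passed an adjusted p of 0.05 in limma-voom (20 at an unadjusted p under 0.05, against 25.4% of all genes, 0 in edgeR, and 12 in DESeq2, which called 11.5% of all genes), and 40 were lower and 20 higher, with a median log2 fold change of −0.18. That median was −0.15 without CTCF-dRBR replicate 1 and −0.17 after GC removal. The counts of lower genes in each list stand against 50.6% of all genes, and the lists too were chosen with earlier results of these data known. Of the other pentose phosphate and ribose genes, 3 of 6 were lower, with a median of −0.01 (0.03 when CTCF-dRBR replicate 1 was left out and −0.08 after GC removal). Their values ran from −0.30 for *PGM1* (limma-voom adjusted p = 0.253) to 0.30 for *DERA* (limma-voom adjusted p = 0.206). Of the other NADPH sources 4 of 10 were lower, with a median of 0.04 (0.0023 and −0.17 in those settings). After GC removal 3 of these 10 were called lower, against 5.27% of all genes. Before it, the one-carbon enzyme *MTHFD1* had the lowest value of the list, −0.60 (limma-voom adjusted p = 0.121). The highest was that of *MTHFD2L*, 0.24 (limma-voom adjusted p = 0.333), which was 0.11 and −0.08 in those settings. The most abundant gene, *MTHFD2*, was at 0.10 (limma-voom adjusted p = 0.436), and at 0.078 and −0.093.

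Among the redox enzymes listed, of which not all use NADPH themselves, 12 of 17 were lower. Their median was −0.22 (−0.16 when CTCF-dRBR replicate 1 was left out and −0.10 after GC removal). *PRDX1*, a peroxiredoxin and the most abundant of them, averaged 995 CPM in CTCF-WT against 853 CPM in CTCF-dRBR. Mitochondrial thioredoxin *TXN2* had the lowest log2 fold change, −1.17 (limma-voom adjusted p = 0.0959). The highest was that of *TXN*, 0.26 (limma-voom adjusted p = 0.304), which was 0.094 and −0.097 in those settings. Of the NRF2 regulators and glutathione genes 8 of 10 were lower, with a median of −0.48, which was −0.21 when CTCF-dRBR replicate 1 was left out and −0.05 after GC removal. *KEAP1*, which holds NRF2 for degradation, was at −0.82 (limma-voom adjusted p = 0.170), and at −0.54 and −0.035 in those settings. *BACH1*, a repressor at NRF2 sites, was at 0.37 (limma-voom adjusted p = 0.147), and at 0.32 and 0.093.

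Downstream of PRPP, 9 of 13 purine genes were lower, with a median of −0.22, and *APRT*, which salvages adenine, had the lowest value, −1.85 (standard error 0.61, limma-voom adjusted p = 0.159). The purine median was −0.15 when CTCF-dRBR replicate 1 was left out and −0.33 after GC removal, and *APRT* was at −1.25 and −0.96. The highest purine value was that of *ADSSL1*, 0.47 (limma-voom adjusted p = 0.237), which was 0.53 and 0.86 in those settings. That gene had 0.584 to 1.07 CPM, near the filter. All 4 pyrimidine genes tested were lower, with a median of −0.61 (−0.59 and −0.42 in those settings). The lowest was *CAD*, of the first steps, at −1.08 (limma-voom adjusted p = 0.156), and at −0.71 and −0.60. The highest was *UMPS*, at −0.17 (limma-voom adjusted p = 0.395), and at −0.058 and −0.22. *CTPS1*, which makes CTP, averaged 96.9 ± 8.69 CPM (SD, n = 3) in the CTCF-WT libraries against 58.9 ± 2.99 CPM, with a log2 fold change of −0.71 (limma-voom adjusted p = 0.0959). Without CTCF-dRBR replicate 1, 5 of the 60 genes were called, all lower, against 2.37% of all genes: *MTHFD1L*, *TXN2*, *SLC7A11*, *HPRT1* and *CTPS1*. With the GC trend removed 13 of the 60 were, all lower, against 5.27% of all genes, among them those 5, *MTHFD1*, *APRT* and *CAD*.

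**Figure D5:**
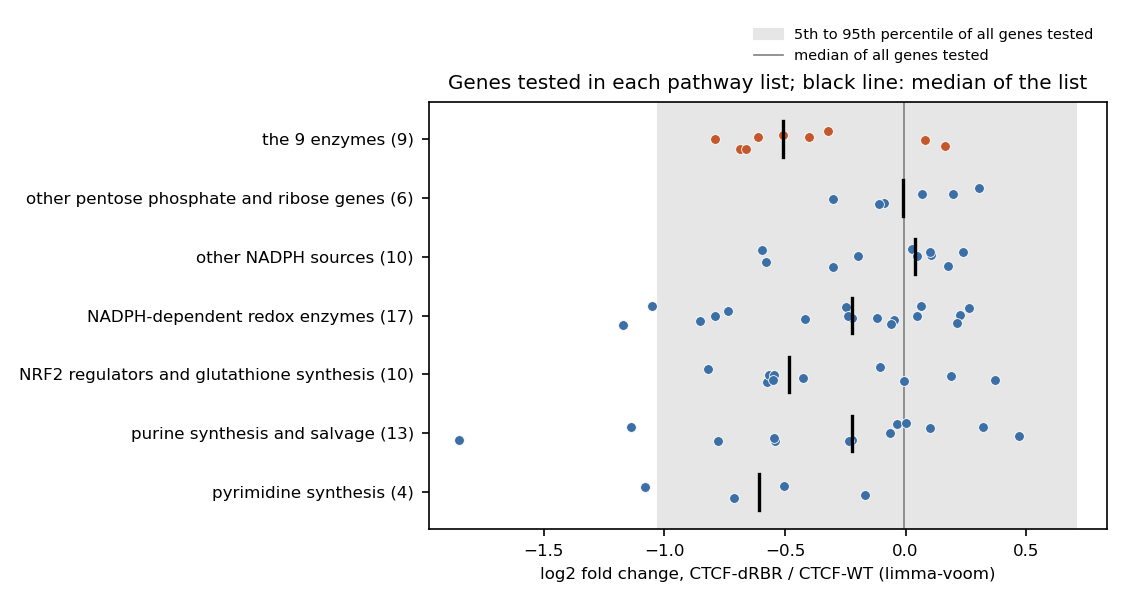
Log2 fold change, CTCF-dRBR over CTCF-WT (horizontal axis), of the 9 enzymes and of each gene tested in the 6 lists, with a black line at the median of each list and a grey band from the 5th to the 95th percentile of all genes. The medians run from −0.61 for pyrimidine synthesis to 0.04 for the other NADPH sources, and that of the 9 enzymes is −0.51.

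The 5 genes whose log2 CPM, centred on their own mean, lay closest to that of *PGD* over the 6 libraries were *INO80C*, *USP4*, *CIRH1A*, *CENPBD1* and *VPRBP*, with root mean square differences of 0.0429 to 0.0673. Of the members, *RPIA* came 26th of 13193 genes (0.118), *PRPS1* 422nd, *TALDO1* 578th and *RPE* 7532nd. Beside *PGD* on chromosome 1, *KIF1B*, a kinesin whose annotation ends 16988 bases before it, had 44.4, 41.2 and 44.4 CPM in CTCF-WT and 47.2, 46.1 and 45.1 CPM in CTCF-dRBR. The log2 fold change of *KIF1B* was 0.09 (limma-voom adjusted p = 0.507). The readthrough gene *APITD1-CORT*, 9591 bases after *PGD*, was at 1.10 to 2.15 CPM and −0.43 (standard error 0.29, limma-voom adjusted p = 0.324). The pseudogene *PGDP1* held 4 to 12.04 counts per library and shared no 100-base stretch with *PGD*, but both had fractional counts in the same 4 libraries. The fractions were complementary there, as in CTCF-WT replicate 2 with 8595.92 counts of *PGD* and 9.08 of *PGDP1*. A few reads thus appear to have been divided between these genes.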

How the data were processed

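Total RNA of 6 SEM libraries was sequenced after removal of ribosomal RNA. Per the study's methods and the submitters' processing notes, the authors trimmed reads with Trim Galore 0.6.3, aligned them with STAR 2.7.9a to GRCh37 and quantified Gencode genes with RSEM 1.3.1, which gave the deposited expected counts and the deposited TPM per gene. The 92 spike-in rows held 0 counts and were left out.

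Groups came from the sample titles. Genes at or above 1 CPM in at least 1 library were tested with limma-voom (limma 3.58.1, TMM factors of edgeR 4.0.16, R 4.3.3), two-sided, with Benjamini-Hochberg adjustment over all genes. Expected counts were rounded for edgeR and DESeq2 1.42.0. GC trends were removed by loess (span 0.5). Single values were compared by exact permutation tests. The code was tested on simulated data. A count of 0 allows up to 0.100 CPM (3 counts), for counting error only. Named genes were the members, the most abundant gene and the genes of highest and lowest log2 fold change of each list (a selection is printed), the 5 genes most like *PGD*, its neighbours and copies of members. Others (*MTHFD1L*, *SLC7A11*, *HPRT1*) were named after their values were seen. The members and lists were chosen with earlier results of these data known.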

Additional observations from a re-analysis of the deposited data

How the results depend on the processing

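The number of genes past an adjusted p of 0.05 was 0 in limma-voom and depended on the test: DESeq2 gave 1619, voomWithQualityWeights 9583, log2(TPM + 1) 833, log2(TPM + 0.1) 760 and removal of the GC trend 1261. Leaving out 1 library gave 0 to 535 genes (535 without CTCF-dRBR replicate 1), and doing so after GC removal, chosen after seeing the data, 0 to 3151 (3151 without CTCF-dRBR replicate 1, 688 without CTCF-WT replicate 3, 1 without CTCF-WT replicate 2). For members other than *PGD* the calls were 0 in limma-voom, 3 in DESeq2, 5 in voomWithQualityWeights and 1 after GC removal, 0 to 1 when 1 library was left out, and 0 to 4 when this was done after GC removal. The causes were not tested.

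The log2 fold change of *PGD* ranged from −0.93 (voomWithQualityWeights) to −0.08 (deposited TPM). Direction changed for *H6PD* in log2(TPM + 1) (0.13), log2(TPM + 0.1) (0.16), GC removal (0.12), GC removal with the replicate block (0.13), leave-one-out fits (−0.59 to 0.0079, above 0 without CTCF-dRBR replicate 1) and in GC removal without CTCF-WT replicate 1, 2 or 3 (0.110, 0.155 and 0.110) or CTCF-dRBR replicate 1, 2 or 3 (0.223, 0.0653 and 0.0766). It changed in log2(TPM + 1) and log2(TPM + 0.1) for *TALDO1* (0.19 and 0.20) and *PRPS1* (0.20 and 0.21). It changed for *RPE* with GC removal, without and with the block (both −0.16), and then also without CTCF-WT replicate 1, 2 or 3 (−0.124, −0.153 and −0.203) or CTCF-dRBR replicate 1, 2 or 3 (−0.167, −0.116 and −0.190). It changed for *PRPS2* without a filter (−0.0070), with GC removal, without and with the block (both −0.12), leave-one-out fits (−0.029 to 0.16, below 0 without CTCF-dRBR replicate 1) and in GC removal without CTCF-WT replicate 1, 2 or 3 (−0.143, −0.118 and −0.104) or CTCF-dRBR replicate 1, 2 or 3 (−0.131, −0.115 and −0.107). For *PGLS*, GC removal gave values above 0 without CTCF-WT replicate 2 or 3 (0.0228 and 0.0390) or CTCF-dRBR replicate 2 or 3 (0.0510 and 0.0496).

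Same-numbered libraries did not deviate together (r = −0.34, 0.099 and −0.47), so the numbers were not used as pairs. With the replicate block 0 genes passed, also after GC removal.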
